A study of Homo sapiens with 8 samples.

Results

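The genes described here are 51 genes of the DNA damage response and of DNA repair, found by name among the 58302 gene rows of the count table. They were listed by their known roles, but with earlier results of these data known, so no test of the list as a set was run. By role, 9 belong to checkpoint and damage signalling, 17 to homologous recombination, 8 to the Fanconi anaemia pathway, 6 to end joining, 3 to mismatch repair, 5 to base excision and single-strand break repair, and 3 encode replication protein A. Poly(A) RNA was sequenced from DLD1, an established human colorectal cancer line, carrying either wild-type TRMT6/61A (OE-WT) or an empty vector (CTRL), to ask which transcripts change when this RNA methyltransferase is overexpressed. TRMT6 and TRMT61A form the enzyme that places 1-methyladenosine on tRNA. Each group has 2 libraries, and each library was run in 2 lanes that the count table does not separate. Both lines were made by lentiviral transduction with pCDH plasmids and otherwise share the DLD1 background. Whether each is a pool or a single clone, and which promoter drives the inserts, is not given in the sources used here, so a difference between OE-WT and CTRL cannot be told apart from a difference between 2 separately made lines. Before lysis the cells were washed with cycloheximide, a translation inhibitor, and RNA was taken from the cleared lysate. The study's design text describes duplicate cultures, while its methods give 3 biological replicates. The p-values measure only the spread between the 2 libraries of each group.

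DNA lesions are recognised and repaired by pathways that share few enzymes. Double-strand breaks are sensed by the MRE11 complex and by the kinases ATM and ATR, and are then joined end to end by the Ku and DNA-PK machinery or copied from the sister chromatid by homologous recombination, which works mainly in S and G2 phase. The Fanconi anaemia proteins unhook crosslinks between strands, mismatch repair corrects replication errors, and base excision repair removes damaged or misplaced bases through glycosylases, an endonuclease and PARP1. DLD1 cells are known for a defect in mismatch repair through mutated MSH6, which leaves them with unstable microsatellites.

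Both overexpressed genes were higher in each OE-WT library than in each CTRL library, as the labels have it. TRMT6 was at 210 and 181 CPM (counts relative to the TMM-scaled library total) in OE-WT and at 52.5 and 55.3 CPM in CTRL, a log2 fold change of 1.86 ± 0.08 (SE). TRMT61A was at 137 and 130 CPM against 58.8 and 56.7 CPM, a log2 fold change of 1.21 ± 0.07. Libraries held 10327498 to 12379671 counts on genes, so that 3 counts, the upper limit that a count of 0 allows, correspond to 0.233 to 0.302 CPM, for counting error only. Of 10 markers of colorectal epithelium, 9 passed the filter on low counts, and their summed level was 12085 to 12428 CPM in OE-WT and 10854 to 11055 CPM in CTRL. They did not move one way, as KRT8 and KRT18 were called higher and KRT19, CDH1 and KRT20 lower, KRT20 at a log2 fold change of −1.52. The summed markers of fibroblasts (7 genes) lay between 2.27 and 3.22 CPM, of leukocytes (7 genes) between 3.89 and 4.81 CPM and of endothelium (4 genes) at 0.589 to 0.804 CPM in OE-WT and 1.13 to 2.33 CPM in CTRL, where the one tested gene, VWF, was called lower at −1.65. The part of these markers in the repair gene results was not tested. COL1A2, COL3A1, DCN, THY1, CD3E, CDH5 and KDR had no count in any library.

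Among the 51 repair genes, 48 had enough counts to be tested, 12 were higher in OE-WT and 1 was lower at an adjusted p below 0.05 in edgeR's quasi-likelihood test over 14133 genes. Of all genes tested, 9.44% were called higher and 11.6% lower. The 12 that rose were TP53BP1, BARD1, RBBP8, FANCB, PRKDC, XRCC5, XRCC6, PARP1, UNG, APEX1, RPA1 and RPA2, and the gene that fell was XRCC3. The increases were between 15.8% and 96.5%. The study's own thresholds require a log2 fold change beyond 1 in either direction with p under 0.05 before adjustment. No repair gene passed them, against 3.15% of all genes, and 22 of the 48 had an unadjusted p below 0.05, against 33.8% of all genes. The median log2 fold change of the 48 was 0.20, and that of all genes tested was 0.01. In 25 of the 48 both OE-WT libraries lay above both CTRL libraries, which held for 29.9% of all genes, and in 8 both lay below, which held for 30.2%. In a bulk sample, fewer cells of one state and less RNA per cell cannot be told apart.

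**Figure D1:**
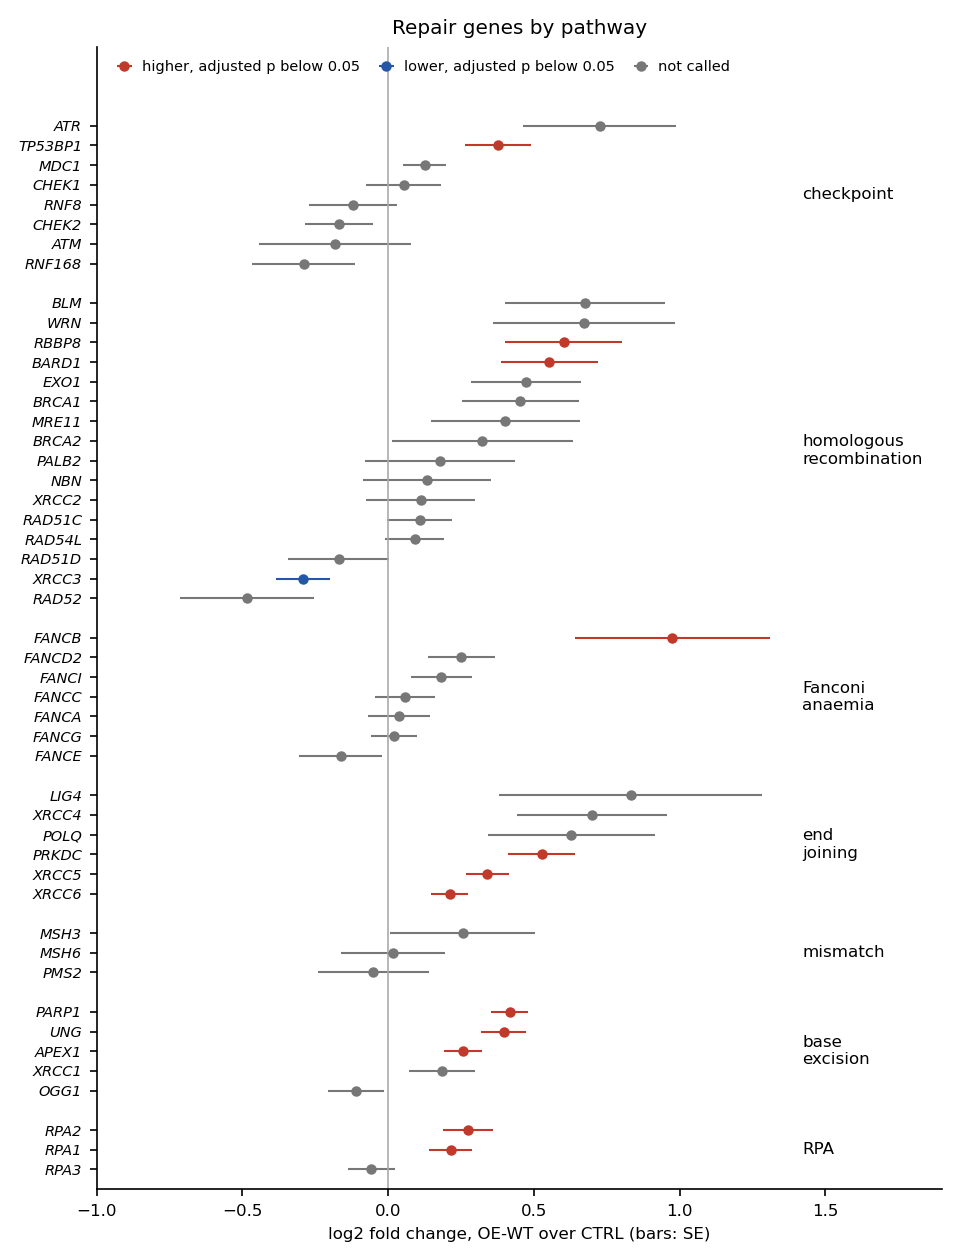
Log2 fold change of each tested repair gene in OE-WT over CTRL (horizontal axis, log2 scale), grouped by pathway, with points as fitted values and bars as standard errors. Red marks the 12 genes that were higher and blue the 1 gene that was lower at an adjusted p below 0.05; the 6 end joining genes all lie to the right of 0.

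The 6 end joining genes all had a log2 fold change above 0, with a median of 0.58. Of all 14133 genes tested, 7229 were above 0. The end joining median was 0.29 without OE-WT replicate 1 and 0.33 without CTRL replicate 1. Called higher were 3 of the 6 (50%) and none was lower, against 9.44% and 11.6% of all genes. These 3 encode the DNA-dependent protein kinase, the enzyme that binds a broken end and holds it for ligation. PRKDC, its catalytic subunit, stood at 75.7 and 54.9 CPM in OE-WT and at 40.7 and 50.1 CPM in CTRL. The groups did not overlap, but OE-WT replicate 2 was much nearer to CTRL replicate 2 than to OE-WT replicate 1. The log2 fold change was 0.53 ± 0.11 (edgeR adjusted p = 0.0022), and without OE-WT replicate 1 the gene was not called. XRCC5 encodes Ku80, one subunit of the ring that slides onto the end, and measured 247 and 233 CPM against 174 and 205 CPM. Its CTRL libraries differed more than its OE-WT libraries, with the lower OE-WT value still above the higher CTRL value, and the log2 fold change was 0.34 ± 0.07 (edgeR adjusted p = 0.0021). It lost the call without CTRL replicate 1. XRCC6 encodes Ku70, the partner of Ku80. It had the highest level of all 51 genes, 580 and 592 CPM against 499 and 512 CPM, with each pair of libraries close together. Its increase was small, at a log2 fold change of 0.21 ± 0.06 (edgeR adjusted p = 0.021). XRCC6 was not called with library size in place of TMM scaling, where the log2 fold change was 0.12, or with the replicate number as a block. With 1 library left out the log2 fold change was 0.19 to 0.23.

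The remaining end joining genes were scarce and were not called. XRCC4, the scaffold of the ligation complex, had 5.33 and 3.83 CPM in OE-WT and 3.18 and 2.43 CPM in CTRL, a log2 fold change of 0.70 ± 0.26 (edgeR adjusted p = 0.058). POLQ, the polymerase of the alternative, microhomology-mediated route, had a log2 fold change of 0.63 ± 0.29. LIG4, the ligase that seals the ends, had the largest value of the group at 0.83 ± 0.45, with 1 OE-WT library at 2.11 CPM and the other 3 libraries at 0.776 to 0.891 CPM. Per kb of transcript, the level of XRCC6 was 257 CPM and that of LIG4 was 0.293 CPM, the widest span of levels within any pathway among genes that were tested.

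Base excision and single-strand break repair had 3 of its 5 genes (60%) called higher and none lower, against 9.44% and 11.6% of all genes. All 3 had a mean of at least 133.5 counts, and of all genes at or above that count 14.2% were called higher. Among the 3 were the 2 repair genes that were called under every alternative. PARP1, which binds nicked DNA and builds poly(ADP-ribose) chains that recruit repair factors, was at 204 and 200 CPM in OE-WT and at 151 CPM in both CTRL libraries. The gap between groups was many times the difference between replicates. PARP1 was 33.5% higher in OE-WT, a log2 fold change of 0.42 ± 0.06 (edgeR adjusted p = 7.4e-05). UNG encodes uracil-DNA glycosylase, which cuts uracil out of DNA, and was at 61.3 and 60.1 CPM against 46.2 and 46.1 CPM. Again replicates nearly coincided and the groups stood apart, with a log2 fold change of 0.40 ± 0.08 (edgeR adjusted p = 7.9e-04). APEX1, the endonuclease that opens the strand at the site a glycosylase leaves, measured 134 and 138 CPM against 113 and 115 CPM. Its log2 fold change was 0.26 ± 0.07 (edgeR adjusted p = 0.0074), and it had the highest level per kb of the group at 86.0 CPM. The other 2 genes were not called. XRCC1, the scaffold that gathers the ligation step, had a log2 fold change of 0.19 ± 0.11, and OGG1, the glycosylase for oxidised guanine, had −0.11 ± 0.10. Exons of CAMK1 and TADA3, on the opposite strand, cover 29.0% of the exonic bases of OGG1. Neither of these neighbours was called, and the part of their reads in the OGG1 counts was not tested.

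Replication protein A coats single-stranded DNA during replication and repair and consists of 3 subunits. RPA1, the large subunit, had 75.6 and 75.4 CPM in OE-WT and 62.5 and 67.7 CPM in CTRL. RPA2, the subunit phosphorylated after damage, had 48.0 and 54.1 CPM against 42.5 and 42.0 CPM. In both genes the OE-WT libraries lay above the CTRL libraries, and both were called, with log2 fold changes of 0.21 ± 0.07 and 0.27 ± 0.08 (edgeR adjusted p = 0.042 and 0.024). Of the 3 genes, 2 (66.7%) were thus called higher and none lower, against 9.44% and 11.6% of all genes. RPA3, the smallest subunit, was the most abundant per kb at 33.2 CPM. It measured 67.7 and 63.9 CPM against 73.3 and 63.5 CPM, so that the OE-WT values fell within the CTRL range, and the log2 fold change was −0.06 ± 0.08. The difference between the subunits was not tested.

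**Figure D2:**
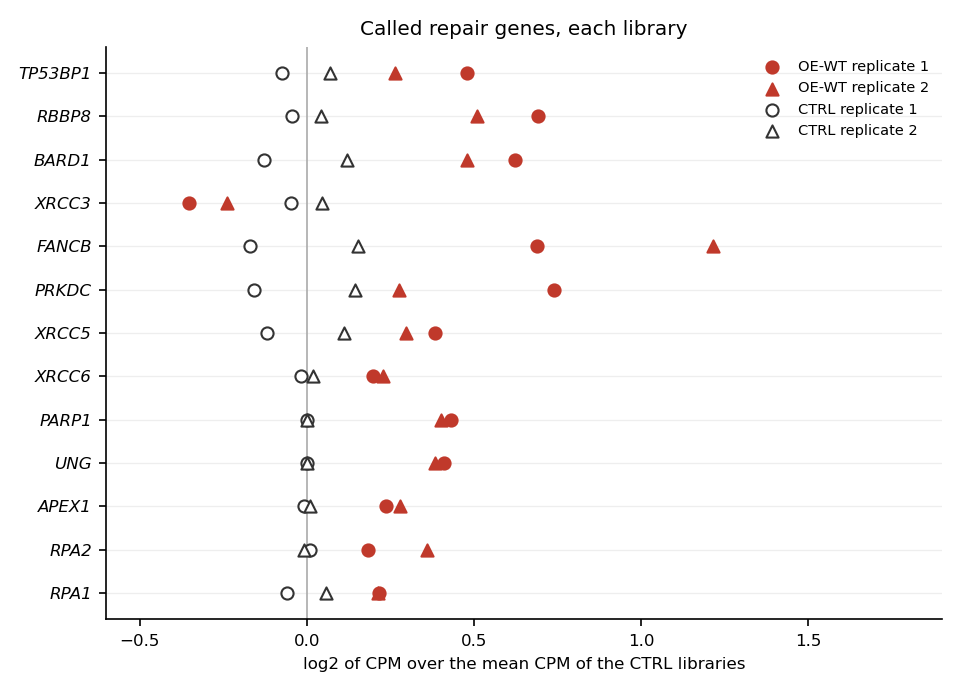
The 13 called repair genes in each of the 4 libraries, as the log2 of CPM over the mean CPM of the CTRL libraries (horizontal axis); circles are replicate 1, triangles replicate 2, filled red OE-WT and open CTRL. In every gene both OE-WT points lie on one side of both CTRL points, and the replicates of PARP1 and UNG nearly coincide while those of PRKDC and FANCB spread widely.

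Homologous recombination was the largest group. A log2 fold change above 0 was found in 13 of its 16 tested genes and in 7229 of all 14133. Of the 16, 2 (12.5%) were called higher and 1 (6.25%) lower, against 9.44% and 11.6% of all genes. The median of the 16 was 0.25. It was 0.16 both with library size in place of TMM scaling and with a GC trend removed, and 0.20 to 0.39 with 1 library left out. BARD1, the obligate partner of BRCA1 in its ubiquitin ligase, was at 11.4 and 10.3 CPM in OE-WT and 6.75 and 8.02 CPM in CTRL. RBBP8 encodes CtIP, which starts the trimming of a broken end so that recombination can follow, and was at 7.24 and 6.38 CPM against 4.34 and 4.62 CPM. Both genes had separate groups, and their log2 fold changes were 0.55 ± 0.17 and 0.60 ± 0.20 (edgeR adjusted p = 0.021 and 0.036). XRCC3, which acts late in the pathway, had 29.5 and 31.9 CPM in OE-WT and 36.4 and 38.8 CPM in CTRL. It was the only called decrease among the 48 genes, at a log2 fold change of −0.29 ± 0.09 (edgeR adjusted p = 0.028), and at 13.3 CPM per kb the most abundant gene of the pathway. Exons of KLC1, which encodes a kinesin light chain on the opposite strand, cover 76.7% of the exonic bases of XRCC3. KLC1 had a log2 fold change of −0.16 ± 0.10 and was not called. The strand setting of the counting is not given in the sources used here, and the part of KLC1 reads in the XRCC3 counts was not tested.

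The other 13 tested recombination genes ranged from −0.48 to 0.68 in log2 fold change. None of the 13 passed the test. The helicase gene BLM was at 0.68 ± 0.27, WRN, another RecQ helicase gene, at 0.67 ± 0.31, the nuclease gene EXO1 at 0.47 ± 0.19 and the nuclease gene MRE11 at 0.40 ± 0.26. In all 4 the OE-WT libraries lay above the CTRL libraries, and the lowest adjusted p among the 13 was 0.080, that of EXO1, in edgeR's test. BRCA1 was at 9.85 and 8.53 CPM against 5.20 and 8.26 CPM, so that the CTRL libraries differed from each other more than the nearest values of the groups did. Its log2 fold change was 0.45 ± 0.20 (edgeR adjusted p = 0.12), and BRCA1 was called only without CTRL replicate 2. BRCA2 was at 0.32 ± 0.31, and PALB2, whose product links the BRCA1 and BRCA2 proteins, at 0.18 ± 0.26. NBN (0.13), XRCC2 (0.11), RAD51C (0.11) and RAD54L (0.09) had log2 fold changes below 0.2. RAD51D was at −0.17 ± 0.17 and RAD52 at −0.48 ± 0.23, the lowest value of all 48.

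Of the 7 tested Fanconi anaemia genes, 1 (14.3%) was called higher and none lower, against 9.44% and 11.6% of all genes. FANCB, a subunit of the core ubiquitin ligase, had 21 and 31 counts with the construct against 15 and 18 with the vector, or 2.11 and 3.04 CPM against 1.16 and 1.46 CPM. These are the lowest counts of any called repair gene. The groups did not overlap, and the log2 fold change was 0.97 ± 0.33 (edgeR adjusted p = 0.042). The pair that the core complex ubiquitinates, FANCD2 and FANCI, had log2 fold changes of 0.25 ± 0.12 and 0.18 ± 0.10 with separate groups, and neither was called. FANCG, the most abundant of the group at 20.4 CPM per kb, measured 52.5 and 52.8 CPM in OE-WT and 50.4 and 53.4 CPM in CTRL. With the OE-WT values inside the CTRL range, its log2 fold change was 0.02 ± 0.08. FANCC (0.06), FANCA (0.04) and FANCE (−0.16) completed the group, whose median was 0.06. This median was −0.03 with library size in place of TMM scaling, 0.10 with a GC trend removed, and 0.09 to 0.15 with 1 library left out. ZNF276, on the opposite strand, covers 19.6% of the exonic bases of FANCA and was itself called lower at −0.58 ± 0.12. The part of its reads in the FANCA counts was not tested.

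The checkpoint group was divided, with 4 tested genes above and 4 below 0 and a median log2 fold change of −0.03. TP53BP1 encodes 53BP1, a chromatin reader at breaks that favours end joining over resection. It was at 27.5 and 23.7 CPM in OE-WT and at 18.8 and 20.7 CPM in CTRL. This was the only call of the group, 1 of 8 tested genes (12.5%), against 9.44% of all genes called higher. Its log2 fold change was 0.38 ± 0.11 (edgeR adjusted p = 0.022). TUBGCP4, on the opposite strand, covers 28.8% of its exonic bases and was itself called higher at 0.28 ± 0.09, and the part of its reads in the TP53BP1 counts was not tested. The apical kinase genes had values of opposite sign. ATR, which responds to stalled forks, had 4.63 and 3.53 CPM against 2.25 and 2.67 CPM and a log2 fold change of 0.73 ± 0.26 (edgeR adjusted p = 0.053). ATM, which responds to double-strand breaks, had 2.61 and 3.04 CPM against 3.10 and 3.32 CPM and a log2 fold change of −0.18 ± 0.26. The difference between ATR and ATM was not tested. Neither effector kinase gene was called. CHEK1 was at 0.05 ± 0.13, and CHEK2, the most abundant of the group at 10.7 CPM per kb, measured 19.4 and 17.7 CPM against 21.4 and 20.3 CPM for a log2 fold change of −0.17 ± 0.12. MDC1, the scaffold at marked chromatin, was at 0.13 ± 0.07, and the ubiquitin ligase genes that act after it, RNF8 and RNF168, were at −0.12 ± 0.15 and −0.29 ± 0.18.

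None of the 3 mismatch repair genes was called, and the libraries of the groups overlapped in each. MSH6, which recognises single mismatches and is the gene mutated in DLD1, measured 8.55 and 9.12 CPM in OE-WT and 7.37 and 10.1 CPM in CTRL. Both OE-WT values lay between the CTRL values, and the log2 fold change was 0.02 ± 0.18. MSH3, which recognises longer loops, had 4.73 and 3.33 CPM against 3.49 and 3.24 CPM and the largest fold of the group at 0.26 ± 0.25. PMS2, the endonuclease subunit, was at −0.05 ± 0.19. Its locus has near-identical pseudogene copies, so reads may have been assigned to either, and its value is uncertain.

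The 3 genes that could not be tested had few counts. ATRIP, the partner of ATR, had 0 and 2 counts in OE-WT against 1 and 0. RAD50, the partner of MRE11, had 2 and 4 counts against 3 and 2. FANCM, the translocase that anchors the Fanconi core complex, had 14 and 7 counts against 6 and 8. On the same strand, TREX1 covers 26.7% of the exonic bases of ATRIP, and an annotated read-through gene, ENSG00000283782, covers 76.9% of those of RAD50. Both of these overlapping genes had 0 counts in all 4 libraries. How the counting treated reads that fall in more than 1 gene is not given in the sources used here. The low counts of ATRIP and RAD50 may therefore not measure their expression, and the part of such reads was not tested. MRE11 and NBN, the other subunits of the complex with RAD50, were detected in every library.

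**Figure D3:**
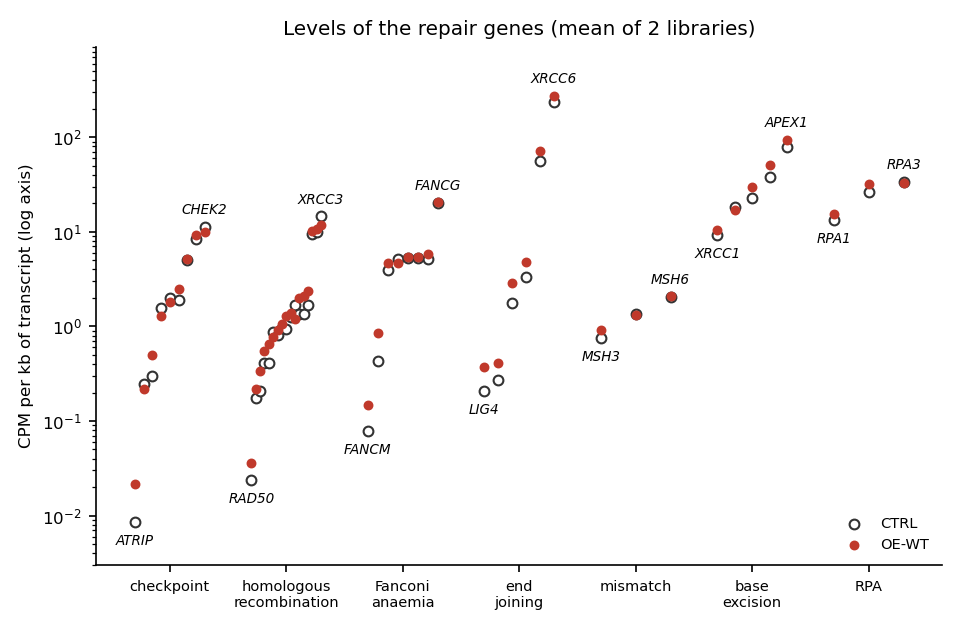
Level of each of the 51 repair genes as mean CPM per kb of the canonical transcript (vertical axis, log scale), by pathway, with open circles for CTRL and red points for OE-WT (each the mean of 2 libraries). Names mark the lowest and highest gene of each pathway; XRCC6 stands highest at 257 CPM per kb over all libraries, and ATRIP and RAD50 lowest.

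Levels per kb were spread over a wide range, while differences between OE-WT and CTRL were small beside it. Of the 48 tested genes, 23 had a mean under 10 CPM and 10 had a mean of 50 CPM or more. More of the abundant genes than of the scarce ones were called. Among the 24 genes with a mean of at least 133.5 counts, 9 were called higher and 1 lower, against 14.2% and 16.4% of all genes at or above that count, and their median standard error was 0.10 on the log2 scale. Among the 24 below it, 3 were called higher and none lower, against 4.34% and 6.43% of all genes below that count, the median standard error was 0.24, and the median log2 fold change was 0.36 against 0.15 in the more abundant genes.

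The log2 fold changes of the repair genes went with the base composition of their transcripts, and its part in the calls was not tested beyond removing a trend. Across the 48 genes, Spearman's rho between log2 fold change and the GC content of the canonical transcript was −0.55, and across 14051 genes tested with a GC value it was −0.31. These genes share the same 4 libraries and are not independent, so the coefficients are descriptions. The 24 repair genes of lower GC content had a median log2 fold change of 0.37 and the 24 of higher GC content 0.05. Repair transcripts were poorer in GC than the rest, with a median of 44.3% against 49.6%, and longer, with a median of 4354 bases against 2880. After a smooth trend with GC content was removed in each library, rho fell in size to −0.39 for the repair genes and to −0.02 for all genes. Then 7 of the 48 repair genes were called higher and none lower, against 9.89% and 10.4% of all genes. The 7 were TP53BP1, PRKDC, XRCC5, XRCC6, PARP1, UNG and APEX1. BARD1, RBBP8, FANCB, RPA1 and RPA2 were not among them, nor was XRCC3, whose transcript had the highest GC content of the 48 at 62.8% and whose log2 fold change became −0.12.

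**Figure D4:**
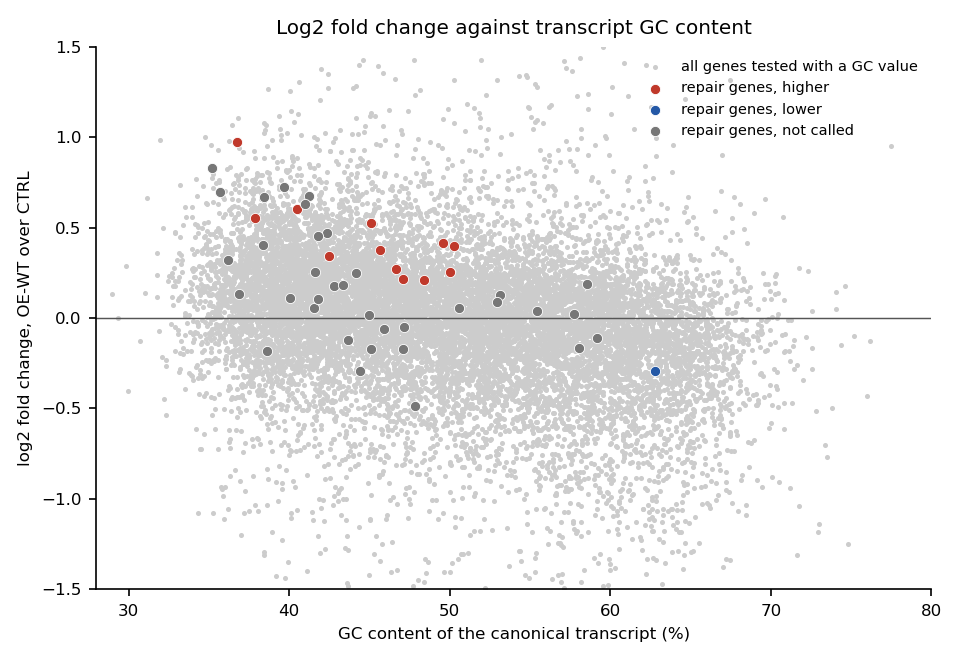
Log2 fold change in OE-WT over CTRL (vertical axis, log2 scale) against the GC content of the canonical transcript in percent (horizontal axis), with 13940 genes drawn in grey and the 48 repair genes on top (red higher, blue lower, dark grey not called); 111 genes lie outside the axes. Repair genes under 45% GC lie mostly above 0, and XRCC3 stands alone at the right.

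Motifs were read from RefSeq promoters of assembly GRCh38.p14, which cover 250 bases before and 50 bases after the start and were found for 44 of the 51 genes. Here the start is that of the promoter record, which can differ from the gene start in the GENCODE annotation. By the GENCODE starts, the stretches printed below for FANCA, FANCC, RPA1, TP53BP1 and XRCC6 lie inside the gene. An E2F word, TTTCCCGC, TTTGGCGC, TTTCGCGC or TTTGCCGC on either strand, is the letters bound by the factors that drive S-phase genes. It was present in 9 of these 44 promoters (20.5%), in 5.55% of the 9516 promoters of genes tested, and in 14 of 30 promoters (46.7%) of DNA replication genes. Among the 9 promoters found for repair genes called higher, 1 held the word, that of XRCC6, downstream of its start. The matches that lie upstream of the start belong to genes that were not called. They are printed to show that the letters are present beside 4 genes with log2 fold changes between −0.05 and 0.26, each written 5′ to 3′ on the strand of its gene with the E2F word, or in MSH3 a pair of overlapping E2F words, in capitals.
FANCA, chr16:89816801-89816830, minus strand: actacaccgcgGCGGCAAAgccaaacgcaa
FANCC, distal, chr9:95317863-95317892, minus strand: ccggggcttccGCGCGAAAccgggaacact
FANCC, proximal, chr9:95317737-95317766, minus strand: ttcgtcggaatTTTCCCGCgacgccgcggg
MSH3, chr5:80654536-80654565, plus strand: gcggtcaagTTTGGCGCGAAAttgtggccg
PMS2, chr7:6009131-6009160, minus strand: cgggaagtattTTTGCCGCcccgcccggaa

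The capitals begin 172 bases before the start in FANCA and in the distal FANCC match, 46 bases before it in the proximal FANCC match, 107 in MSH3 and 43 in PMS2. In the remaining promoters with the word, those of EXO1, FANCD2, MSH6, XRCC2 and XRCC6, the match reaches or lies past the start. A second word, the CCAAT box bound by NF-Y, was more common, in 23 of 44 promoters (52.3%) against 36.7% of the promoters of genes tested, and in 5 of the 9 promoters of genes called higher. It is shown for the genes called higher in which it lies wholly upstream, with CCAAT, or its reverse complement ATTGG, in capitals.
APEX1, chr14:20455127-20455155, plus strand: gtgtcagacagaCCAATcacgcgcattct
RPA1, chr17:1829914-1829942, plus strand: gccgcgcctcggCCAATgcggcggctgcg
TP53BP1, chr15:43510699-43510727, minus strand: tctgggggacccATTGGtggggcgaggcg
XRCC6, chr22:41621257-41621285, plus strand: tagagggcgttgATTGGgaccgagtacag

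These boxes begin 87, 79, 75 and 26 bases before the start of APEX1, RPA1, TP53BP1 and XRCC6. XRCC3, which fell, held 5 such boxes upstream of its start. The word CCGGAAGT, bound by ETS factors, was in 20.5% of repair promoters and 9.18% of those of genes tested, but in 0 of the 9 of genes called higher. TTTGAA, part of the element read in mitotic genes, was in 11.4% and 9.27%. A match of letters does not show that a factor bound there.

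Genes of the same pathways outside the 51 were read from the same fit. Of 134 such repair genes, 125 were tested, with a median log2 fold change of 0.14. Of the 125, 18 (14.4%) were higher and 5 (4%) lower, against 9.44% and 11.6% of all genes. With library size in place of TMM scaling the split was 10 higher and 11 lower, against 5.2% and 17.3% of all genes. CLSPN, the adaptor through which ATR activates CHEK1, was at 7.14 and 7.45 CPM in OE-WT and 3.18 and 2.84 CPM in CTRL, and its log2 fold change of 1.27 ± 0.21 was above that of any of the 51. MCM8 (0.75), USP1 (0.71) and TOPBP1 (0.65) followed among those with a mean of at least 50 counts. The decreases were SWI5 (−0.58), MAPKAPK2 (−0.42), MAD2L2 (−0.30), ERCC2 (−0.28) and MPG (−0.24). By pathway, 4 of 7 other mismatch repair genes were higher, among them PCNA, the sliding clamp of replication (0.33 ± 0.06), and LIG1 (0.27 ± 0.09). Of 14 other end joining genes tested, 1 was higher and none lower, 5 had a log2 fold change below 0, and the median was 0.04, against 0.58 in the 6 end joining genes among the 51. Of 26 other checkpoint genes 5 (19.2%) were higher and 1 (3.85%) lower. In the remaining lists of 18 to 23 tested genes 2 were higher and 1 lower each, or 8.70% to 11.1% and 4.35% to 5.56%. Those lists were homologous recombination, the Fanconi anaemia pathway, base excision and nucleotide excision repair. Of all genes, 9.44% were higher and 11.6% lower.

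The lists read beside the repair genes differed in their counts, where 9.44% of all genes were called higher and 11.6% lower. Of 34 DNA replication genes 21 were higher and none lower, with a median log2 fold change of 0.28. Of 24 tested mitosis genes 3 were higher and 1 lower, with a median of 0.05. Of 22 tested p53 target genes 1 was higher and 2 were lower, with a median of −0.03. CDKN1A, which encodes the cell cycle inhibitor p21 and is a standard readout of a p53 response to damage, was at 60.4 and 69.4 CPM in OE-WT and at 72.0 and 60.1 CPM in CTRL. The groups overlapped, and the log2 fold change was −0.03 ± 0.09 (edgeR adjusted p = 0.87). The study reported more p21 protein in OE-WT than in CTRL DLD1 cells by Western blot, and protein is not measured by these RNA counts. MDM2, another p53 target, was the one that was higher, at 0.47 ± 0.14, and FDXR and TNFRSF10B were the 2 that were lower.

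The calls depended on the scaling, the test and single libraries to different degrees. PARP1 and UNG were called higher under all 13 alternatives, and XRCC5 under 12. With DESeq2's Wald test 4 repair genes (XRCC5, XRCC6, PARP1 and UNG) of the 44 given an adjusted p were higher and none lower, against 4.58% and 7.5% of all genes. With library size in place of TMM scaling, 5 were higher and 1 was lower, against 5.2% and 17.3%. Without CTRL replicate 1, 4 were higher (PRKDC, PARP1, UNG and APEX1) and 1 was lower, against 5.52% and 8.09%. Without OE-WT replicate 1, 6 were higher and none lower, against 5.78% and 8.19%, and TP53BP1, BARD1, RBBP8, PRKDC, XRCC6, RPA1 and XRCC3 lost their calls. Without OE-WT replicate 2, 10 were higher and 1 lower, against 8.09% and 11.2%, with ATR, XRCC4 and LIG4 now called and RBBP8, FANCB, XRCC6, RPA1 and RPA2 no longer called. Without CTRL replicate 2, 11 were higher and none lower, against 8.55% and 10.6%, with BRCA1 and POLQ now called and RBBP8, FANCB, RPA2 and XRCC3 no longer called.

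**Figure D5:**
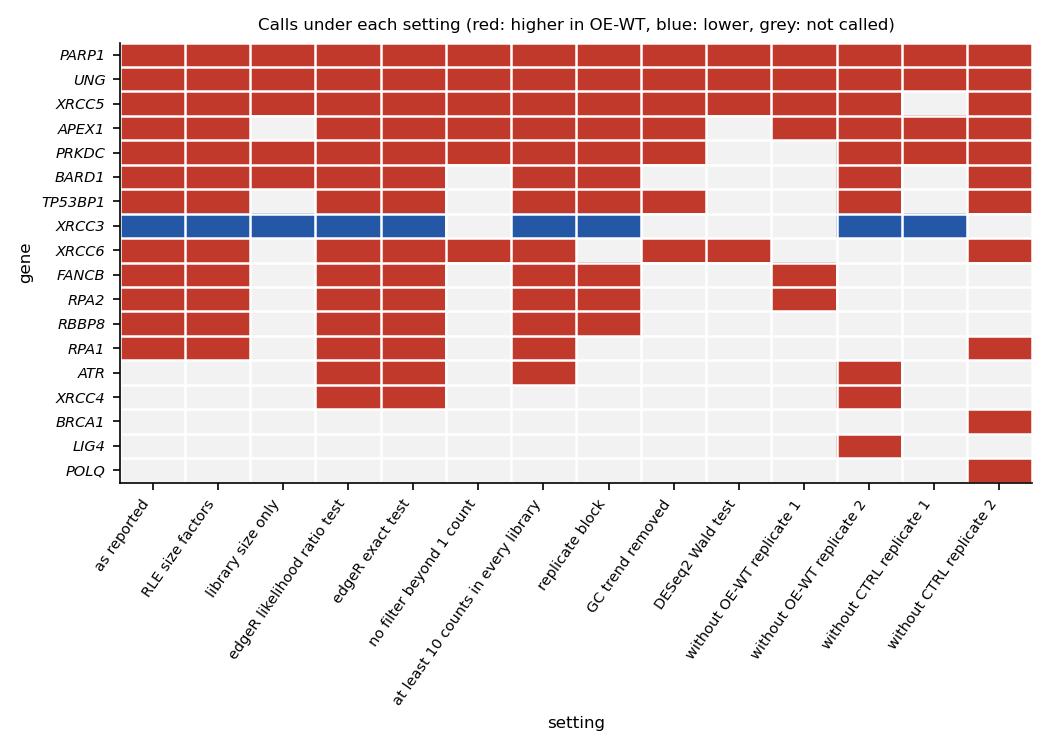
Calls of each repair gene called under at least 1 setting (rows) as reported and under each of 13 alternatives (columns); red is higher in OE-WT, blue lower and grey not called, at an adjusted p below 0.05. Grey also marks cells without an adjusted p, which are FANCB and LIG4 under DESeq2 and LIG4 with at least 10 counts in every library. The rows of PARP1 and UNG are red throughout, and most other rows have gaps under DESeq2, without a GC trend or without 1 library.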

How the data were processed

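RNA sequencing gave 4 libraries, 2 OE-WT and 2 CTRL, each from 2 lanes. Per the study's methods, the authors used Cutadapt for trimming, HISAT2 for alignment against GRCh38 and HTSeq for counting. The submitters' processing notes name HISAT2 2.2.1, featureCounts 2.0.0 and DESeq2 1.34.0. The deposited values are raw counts per gene, with 10327498 to 12379671 per library. The methods describe removal of ribosomal RNA and the labels poly(A) selection. The annotation release is not given in the sources used here.

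GENCODE release 44 (GRCh38) gave symbols for 57532 of 58302 identifiers, the overlaps of exons, and the length and GC content of the Ensembl canonical transcript. The table was fitted whole with edgeR 4.0.16 in R 4.3.3 (filter by group, minimum count 10; TMM; quasi-likelihood test without a replicate block; Benjamini-Hochberg adjustment over 14133 genes). Fold changes are log2, SE is that of the fit, CPM use TMM-scaled library sizes. An exact two-sided permutation test of 2 against 2 libraries cannot go below 0.333. The deviations of same-numbered libraries from their group means correlated at −0.07, so the numbers were not read as pairs. Replicates differed beyond counting noise.

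Members and lists were chosen with earlier results of these data known. Called genes were named with full values, as were the most abundant member per kb of each of the 7 pathways and the largest fold of a pathway without calls. Of the other repair genes called, those with the largest changes and a mean of at least 50 counts were named. The steps were tested on simulated data. Alternatives covered DESeq2 1.42.0, RLE factors, no scaling beyond library size, the likelihood ratio and exact tests of edgeR, both other filters, a replicate block, removal of a GC trend (lowess, span 0.3), and each library left out in turn, where the lone library is assumed to vary like the other group. Figures were drawn with matplotlib 3.10.9 in Python 3.11.15. Ribosome profiling, tRNA sequencing and the mutant construct were not analysed here.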

Additional observations from a re-analysis of the deposited data

How the results depend on the processing

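TRMT6 and TRMT61A kept their direction and call under every alternative. The count of repair genes called higher, 12 as reported, was 5 with library size only and 6 with no filter beyond 1 count. It was 7 with a GC trend removed and 4 with DESeq2. The likelihood ratio test and the exact test each gave 14, and at least 10 counts in every library gave 13. ATR was called under all of these last settings, and XRCC4 in the likelihood ratio and exact tests. The count called lower, 1 as reported, was 0 with no filter beyond 1 count, with a GC trend removed and with DESeq2, and 0 to 1 with 1 library left out. Genes past the study's thresholds, 0 as reported, numbered 0 to 2 with 1 library left out (FANCB, LIG4 or POLQ, named after their values were seen). The median log2 fold change of the repair genes, 0.20, was 0.11 with library size only, which also moved the median of all genes to −0.08, and 0.16 to 0.25 with 1 library left out. Other repair genes called higher, 18 as reported, were 10 with library size only and 6 with DESeq2, and 6 at the least with 1 library left out. Those called lower, 5 as reported, were 11 with library size only, 3 with no filter beyond 1 count, 3 with the replicate block, 2 with a GC trend removed, 1 with DESeq2, and 1 at the least with 1 library left out. Log2 fold changes near 0 changed sign. With library size only FANCG was at −0.071 and MSH6 at −0.073, and MSH6 was at −0.0020 with no filter beyond 1 count and at −0.054 with a GC trend removed. With 1 library left out, FANCG ranged from −0.021 to 0.062, MSH3 from −0.013 to 0.48, MSH6 from −0.20 to 0.26 and RPA3 from −0.16 to 0.050. The cause was not tested. With the replicate number as a block 10 repair genes were higher and 1 lower, XRCC6 and RPA1 no longer being called. It changed no other call among these genes. Of the comparisons of named genes with their alternatives, 170 kept direction and side of the threshold and 54 lost the call.

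The median standard error was 0.24 in the 24 scarcer repair genes, among which RBBP8, BARD1 and FANCB were called and LIG4, POLQ and BLM, with fold changes of like size, were not. A gene of this depth that was not called is not shown to be without change.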

Other observations

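Many repair genes start close to a neighbour on the opposite strand. Starts here are the gene starts of GENCODE. Within 1000 bases, 18 of the 48 tested repair genes (37.5%) had the start of a protein-coding gene on the other strand, and 13.9% of the 11663 protein-coding genes tested had one. In 14 of these pairs both genes were tested, and in 10 of the 14 both log2 fold changes had the same sign. The share among all such pairs was not computed, and 37 of the 48 repair genes had a log2 fold change above 0. The starts of PRKDC and MCM4, a subunit of the replicative helicase, lie 7 bases apart, and both were called higher at 0.53 ± 0.11 and 0.29 ± 0.07. The partners of XRCC6 and APEX1 had nearly the values of the repair genes themselves, but neither partner was called. DESI1 was at 0.21 ± 0.08 beside XRCC6 at 0.21. OSGEP, a tRNA-modifying enzyme gene, was at 0.27 ± 0.12 beside APEX1 at 0.26. ZFYVE21, which was not called, was at −0.32 ± 0.12 beside XRCC3 at −0.29 ± 0.09, so that both genes of that pair had fewer counts in OE-WT. BRCA1 was at 0.45 and its neighbour NBR1 at −0.12, LIG4 was at 0.83 and ABHD13 at −0.34, and ATM was at −0.18 and NPAT, a histone gene activator, at 0.83. These pairs were chosen after their values were seen, and their shared promoters were not tested as a cause.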
